A study of Homo sapiens with 17 samples.

Results

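Pausing times were examined at 18016 genomic positions that appeared, on the same chromosome and strand, in both replicate tables of a run-on experiment performed with sarkosyl in HEK293 cells. These reproducible sites made up 37.1% of the 48566 sites of replicate 1 and 37.8% of the 47713 sites of replicate 2. The deposited tables of the whole series hold 158141 distinct sites, of which 78263 belong to the sarkosyl tables. Shifting replicate 1 by 1000 bp left 95 matches, or 0.199% of the smaller table.

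The experiment comprised 8 libraries of HEK293, an established human embryonic kidney line grown in DMEM with 10% FBS. Permeabilized cells were allowed to run on at 37 °C for 0.5, 2, 8 or 32 min in a buffer with sarkosyl, with 2 replicates at each time. The labels name no drug or genetic change in these libraries. Each replicate series of 4 times yielded 1 table, so each site has 2 values and n = 2 throughout. The series is described as made of biological duplicates, and SDs and p-values here measure only the spread between these 2 tables. Read depth per site is unknown, since the tables give fitted values and no counts. The unit of time is not given in the sources used here, so pausing times are given in the units of the tables. Positions on the minus strand of the X chromosome and of every other sequence that sorts after the mitochondrial genome are missing from both tables. Of the marker genes checked for cell identity, VIM, KRT8 and KRT18 held 7, 5 and 1 reproducible sites. The markers NEFL, NEFM and PAX2, the 10 myeloid and blood markers and the 3 liver markers held 0.

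RNA polymerase II commonly halts shortly after it starts a transcript, and the pausing factors NELF and DSIF hold it there until the kinase P-TEFb releases it. Polymerase also slows inside genes, near splice sites and past the cleavage site, where termination takes place. A run-on assay labels the 3′ end of nascent RNA in permeabilized cells with tagged nucleotides. Sarkosyl, an anionic detergent, removes most chromatin-bound factors and prevents further initiation, while polymerases already engaged can still elongate. The deposited pausing time is the reciprocal of the median of a rate fitted for each site. How that rate follows the label over the run-on times is not given in the sources used here.

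The sequence at the sites is shown first because C or G stood at nearly every site. The 51 bases around the site could be read for 7147 sites (39.7%), 6474 from GENCODE v29 transcripts and 673 from RefSeq promoter windows, both on GRCh38. Positions were read as counted from 1; a shift of 1 base would move every pattern by 1. Each line below is 30 bases long, runs 5′ to 3′ on the strand of the site, and has the 4 bases that end at the site in capitals. The first group comes from 4 of the genes with the longest pausing times, and the next from 4 of those with the shortest. The site shown is the longest of its gene in the first group and the shortest in the next. Only sites with readable sequence were ranked, by the mean log2 time of both replicates.
HIST1H2BJ: ctgaagcaggtccacccTGACaccggcatt
STAG3L3: tccgagcgttggtgtctGGCGgtttccgag
ASH1L-AS1: gaccgacacgggtattgTACCgctgaggga
RPS15: tgatgcagctgtacagtGCGCgccagcggc
MIR663AHG: agggcgcccgcctggtcCGGCgagcgcacg
C1QTNF6: cagagaggcaggtcctcGTCCctcgggccc
KIF5B: gagcgggcggacgggtaGGCCcggcctgct
AC007952.4: gggatgctgtgtggcacCTCCtattgtctc

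The pattern GNCC, with its last C at the site, is in 0 of the first 4 windows and in 2 of the next 4, C1QTNF6 and KIF5B. The HIST1H2BJ window lies at chr6:27132586-27132615 on the minus strand, with the site 155 bp after a start. The pausing time there was 7.04 in replicate 1 and 7.52 in replicate 2. These were the shortest time of the gene's 5 sites in replicate 1 and the longest in replicate 2. The C1QTNF6 site had times of 0.955 and 1.17, above the gene's medians of 0.740 and 0.841. The KIF5B window lies at chr10:32056337-32056366 on the minus strand, with the site 85 bp after a start and times of 0.468 and 0.721. The ASH1L-AS1 window lies at chr1:155563341-155563370 on the plus strand, and its site had times of 43.5 and 66.7. The RPS15 window, chr19:1440027-1440056 on the plus strand, lies in an exon, with times of 17.5 and 8.70 at the site.

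Over the 6751 nuclear sites with readable sequence, the base at the site was C at 71.6%, G at 24.9%, T at 2.52% and A at 1.01%. The base 3 positions before it was G at 56.7% of sites, and the base just before it was C at 59.5%. The flanking bases of the same windows were 26.4% C and 32.4% G. GNCC ended at the site in 28.1% of nuclear sites, against 2.32% of the places over 10 bases away from sites outside tRNA genes in the same windows. GNCC joins the most frequent base of each of these places in the same sites. Its excess over the flanks therefore follows from the shares above and is no separate result. On the other strand the same pattern added little: either strand gave 28.8% for nuclear sites outside tRNA genes.

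Sites with GNCC had shorter times than sites without it. On the log2 scale and relative to the median of all reproducible sites of the same table, as all such values below, the 1900 nuclear sites with GNCC had medians of -0.33 and -0.13 in replicates 1 and 2. The 4851 without it had medians of 0.13 and 0.01. In exons of coding gene bodies, GNCC was present at 38.6% of 1794 sites, with medians of -0.05 and 0.18 against 0.68 and 0.50 for the others. Near coding starts, 23.8% of 3266 sites had it, with medians of -0.51 and -0.38 against -0.07 and -0.11. Both replicates gave the same order in each setting.

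Mitochondrial sites carried another pattern, as the windows below from MT-RNR2 and MT-ND5 show. Each holds the longest readable site of its gene by the mean log2 time of both replicates. The windows lie at chrM:2385-2414 and chrM:13102-13131, plus strand, with the 4 bases ending at the site in capitals.
MT-RNR2: tctacaatcaaccaacaAGTCattattacc
MT-ND5: ggaatcttcttactcatCCGCttccacccc

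Sequence was readable at 396 of the 860 mitochondrial sites, which are transcribed by the single-subunit mitochondrial polymerase. Transcript sequence was read on the strand of the site, and the plus strand holds most mitochondrial genes, so these values may describe mainly that strand. C stood at 86.9% of the 396 sites. The base before the site was A in 56.6%, and the base 3 before was G in 10.9%. GNCC ended at 2.53% of these sites, against 1.67% of the places over 10 bases away in the same windows. The flanking bases were 29.8% A, 30.8% C and 15.1% G.

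GC content was weakly related to the time. Over the 21 bases around 7147 sites, Spearman's rho across sites was -0.17 in replicate 1 and -0.13 in replicate 2, a description of sites that share libraries. Nuclear windows with at most 40% GC had medians of 0.57 and 0.21 (n = 601). Windows above 80% GC had medians of -0.40 and -0.21 (n = 816).

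Replicate tables agreed moderately on the time of a site. The median time was 1.46 in both, with quartiles of 0.898 and 3.21 in replicate 1 and of 1.06 and 2.53 in replicate 2. Replicate 1 was the wider, with times from 0.359 to 166.7, and the shortest time in replicate 2 was 0.478. Spearman's rho across the 18016 sites was 0.69 and Pearson's r on the log2 scale was 0.69. The median absolute difference was 0.56 on the log2 scale, and 74.5% of sites lay within 1 log2 unit of each other. Sites in only 1 table had medians of 1.51 and 1.29. Long times were also the less certain ones: the ratio of the upper to the lower quartile of a site's fitted rate rose with the time, with a rho across sites of 0.61 in replicate 1 and 0.95 in replicate 2.

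Classes of sites, assigned from same-strand GENCODE v29 genes on GRCh38, overlapped widely. In replicate 1 the quartiles were 0.824 and 2.99 near coding starts and 1.01 and 3.75 in coding gene bodies. Of the sites, 22.3% lay within 300 bp after a protein-coding start and 26.2% in coding gene bodies. A further 12.5% lay in the termination zone, within 5000 bp past a gene's end.

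**Figure D1:**
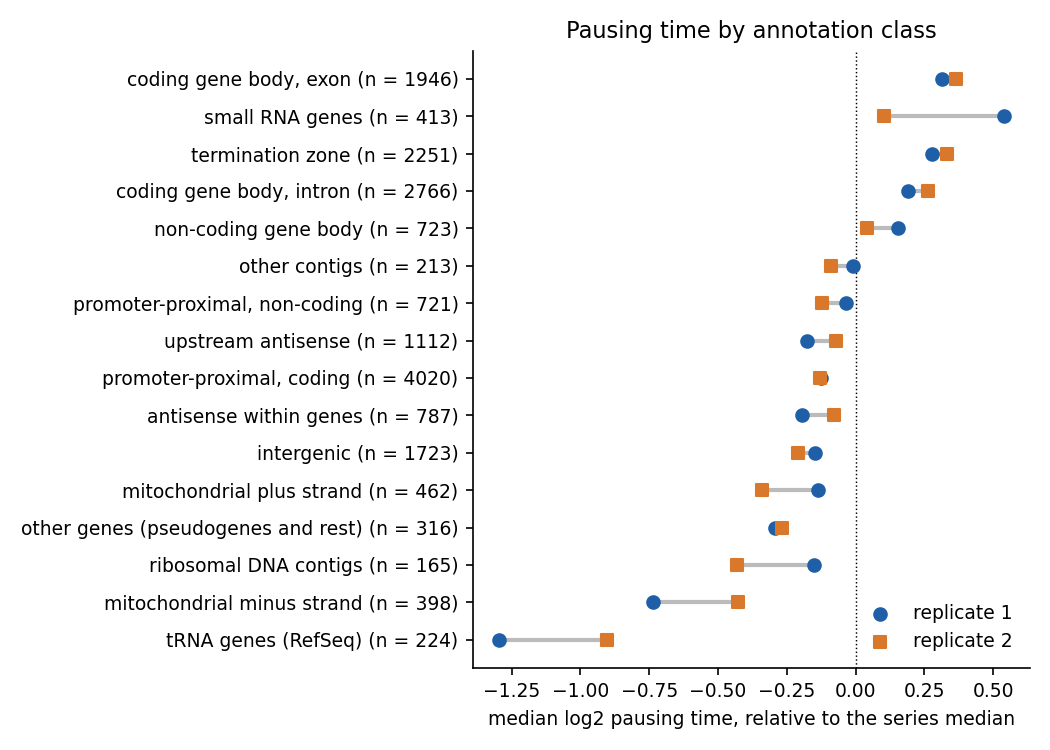
Median log2 pausing time (horizontal axis, relative to the median of all reproducible sites of the same table) of each annotation class, with circles for replicate 1 and squares for replicate 2. Exons of coding gene bodies lie at 0.31 and 0.37, and tRNA genes at -1.30 and -0.90, below every other class in both replicates. The tRNA sites are also counted in the class that GENCODE gives them.

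Promoter-proximal sites of coding genes had shorter times than gene bodies. Their median times were 1.34 in replicate 1 and 1.33 in replicate 2 (n = 4020), against 1.72 and 1.81 in gene bodies (n = 4712). On the log2 scale the medians differed by -0.40 ± 0.06 (SD, n = 2 replicates). Within 81 genes that had at least 3 sites of each kind, the median difference was -0.24 and -0.48. The promoter-proximal sites were lower in both replicates in 39 of these genes and higher in both in 19. Among sites with narrow fits in both tables, the promoter difference shrank to -0.08. Here and below, such sites leave out most long times (medians 0.806 and 0.985), so a smaller difference among them cannot test a contrast.

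The shortest times near coding starts lay in the first 60 bp. Sites 21 to 40 bp after a start, where promoter-proximal pausing usually takes place, had median times of 1.03 and 1.10 (n = 672). Sites 151 to 200 bp after a start had 2.99 and 2.05 (n = 231). Sites 1001 to 5000 bp after a start had 1.83 and 1.90 (n = 1831). Sites over 100 and up to 300 bp after a start exceeded those at 0 to 60 bp by 0.95 ± 0.27 (SD, n = 2 replicates), a contrast chosen after the values were seen. It was 0.14 among sites with narrow fits in both tables.

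**Figure D2:**
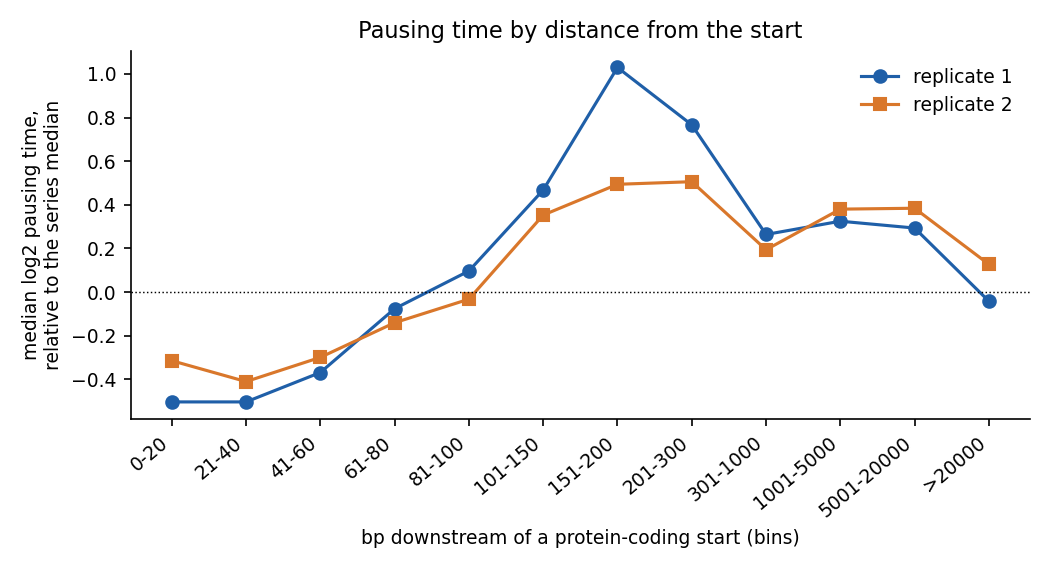
Median log2 pausing time (vertical axis, relative to the median of all reproducible sites) by distance downstream of a protein-coding start (horizontal axis, bins in bp that widen along the axis), with circles for replicate 1 and squares for replicate 2. Both replicates are lowest at 0 to 60 bp, and replicate 1 peaks at 1.03 in the bin of 151 to 200 bp, where replicate 2 is at 0.49.

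Upstream antisense sites, on the strand opposite a coding start and within 1000 bp of it, did not differ from promoter-proximal sites beyond the spread between replicates. The difference was -0.05 in replicate 1 and 0.06 in replicate 2 (n = 1112 sites). Their medians were -0.25 and -0.08 in the first 100 bp (n = 94), -0.51 and -0.24 over 100 and up to 200 bp away and 0.14 and 0.11 at 501 to 1000 bp.

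Inside coding gene bodies, exon sites were slightly longer than intron sites, by 0.14 and 0.13 among sites over 300 bp from any start. Among those with narrow fits in both tables, the difference was 0.037 on average. The 107 sites within 30 bp after a 3′ splice site, where the exon begins, had median times of 2.74 and 1.98. The 3788 sites over 500 bp away had 1.67 and 1.74. The 91 sites within 30 bp after a 5′ splice site had 2.05 and 1.88. The termination zone differed from gene bodies by 0.03 ± 0.02, with medians of 0.28 and 0.33 (n = 2251). Bodies of non-coding genes were shorter than coding ones by 0.09 and 0.29, but their types differed. The 329 lincRNA sites had medians of -0.01 and -0.17, and the 245 antisense sites 0.15 and 0.17. The 113 processed transcript sites had 0.51 and 0.19, against 0.24 and 0.31 in coding gene bodies. The non-coding class includes some sites in tRNA genes and on the ribosomal DNA of chromosome 21, both described below.

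Neighbouring sites had similar times. On the same strand, reproducible sites were at least 4 bp apart. The median absolute difference between adjacent sites was 0.50 and 0.29 for pairs 4 to 5 bp apart, and 1.19 and 0.86 for pairs over 5000 bp apart. All classes were pooled, including the dense mitochondrial sites, so distance was not separated from class.

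The class with the shortest median times was that of tRNA genes, which RNA polymerase III transcribes. Their promoters are inside the transcribed part, in an A box and a B box that the factor TFIIIC binds. The windows below contain 1 site in each of 5 tRNA genes, of 5 amino acid families. The sites are the shortest of these families with readable sequence, by the mean log2 time of both replicates. Capitals in the windows mark GTTCNA, the core of the B box. Each is 30 bases long and runs 5′ to 3′ on the strand of the site.
TRR-ACG2-1: atcagaagattctagGTTCGActcctggct
TRP-TGG3-5: gaggtcccggGTTCAAatcccggacgagcc
TRT-AGT1-2: gagatcctggGTTCGAatcccagcggtgcc
TRE-TTC3-1: gccgcggcccggGTTCGAttcccggccagg
TRW-CCA1-1: cggtagcgcgtctgactccagatcagaagg

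The windows lie at chr3:45689005-45689034, chr16:3188135-3188164, chr17:8226236-8226265, chr1:16872622-16872651 and chr17:8220896-8220925, in the order shown, with the first, the third and the last on the minus strand. The site is base 10, 20, 20, 14 and 16 of the windows. In TRR-ACG2-1, an arginine tRNA gene, the site had times of 0.374 and 0.534. In TRW-CCA1-1, a tryptophan tRNA gene, the site lay at base 31 of the gene with times of 0.455 and 0.742. Among 51-base windows, 19 of 23 in tRNA genes held GTTCNA on the strand of the site (82.6%). Among other nuclear sites 4.33% held it, or 6.45% on either strand.

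In all, 224 sites fell in 159 of the 465 tRNA genes of RefSeq on GRCh38.p14, looked for after the short times were seen. Each of these genes had sites on 1 strand only. Their median time was 0.594 in replicate 1 (quartiles 0.509 and 0.685) and 0.780 in replicate 2 (quartiles 0.701 and 0.865). All other sites had medians of 1.49 and 1.47. The medians of tRNA and other sites differed by -1.12 ± 0.29 on the log2 scale (SD, n = 2 replicates), and by -0.42 among sites with narrow fits in both tables. All 224 lay below the median of all sites in replicate 1 and 220 in replicate 2, so 98.2% were below in both, against 36.7% of other sites. Within 100 bp past the same genes, 116 sites had medians of 0.01 and -0.33.

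**Figure D3:**
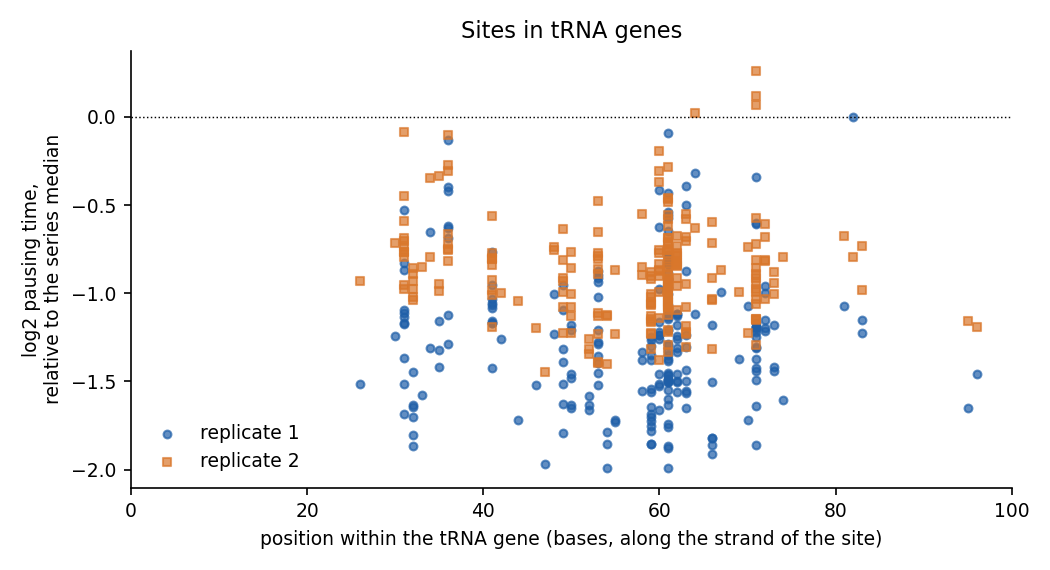
Log2 pausing time of the 224 sites in tRNA genes (vertical axis, relative to the median of all reproducible sites) against their base within the gene, counted from the 5′ end along the strand of the site (horizontal axis), with circles for replicate 1 and squares for replicate 2. The dotted line marks the median of all sites, and 220 of the 224 sites lie below it in both replicates.

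Positions in tRNA genes ran from base 26 to base 96, and 45 of the 224 sites (20.1%) were at base 61. The next most frequent was base 71, with 18 sites. Sites at bases 46 to 60 had median times of 0.535 and 0.728 (n = 67), and those at bases 31 to 45 had 0.655 and 0.836 (n = 43). Arginine tRNA genes gave the most sites, 37 in 16 genes, with median times of 0.466 and 0.713. Glycine genes gave 33 sites in 21 genes, with 0.621 and 0.779. The 5 aspartate sites had the longest medians of the families, 0.932 and 1.04. tRNA genes exist in near-identical copies, so which copy a read came from is uncertain. Of the sites, 127 had been classed as intergenic, and without them the intergenic medians rose from -0.15 and -0.21 to -0.02 and -0.13.

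Sites tested one by one gave far more long calls than short ones. With limma's moderated test across all 18016 sites and Benjamini-Hochberg adjusted p under 0.05, 2252 sites (12.5%) were longer than the median and 58 (0.322%) were shorter. Called longer were 5.79% of sites 0 to 60 bp after coding starts, 24.2% of those over 100 and up to 300 bp away and 12.3% of all promoter-proximal sites. In exons of coding gene bodies 16.4% were called longer, in the mitochondrial plus strand 0.866% and in tRNA genes 0.0%. Of the tRNA sites 17, or 7.59%, were called shorter, and of the sites on ribosomal DNA contigs 4.24%. A robust trended prior called 1873 longer and 3088 shorter. With both tables scaled to the same interquartile range, 0 sites were called by limma, against 5898 at an unadjusted p under 0.05.

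The longest called site was at chr5:179613163 on the minus strand, 1015 bp past the end of HNRNPH1, an RNA-binding protein gene. Its times were 111.1 and 58.8, a mean of 5.79 ± 0.41 (SE) with an adjusted p of 0.00237 by limma. The other two of the 3 longest were at chr21:8219812 and chr21:8219719 on the plus strand, with times of 83.3 and 76.9 and of 83.3 and 62.5. GENCODE places both in FP671120.1, but in RefSeq they lie 510 and 417 bp past the end of RNA45SN2, the ribosomal RNA precursor gene at chr21:8205988-8219302. The site 405 bp past it had times of 62.5 and 16.9, while the one 37 bp past had 0.683 and 0.702. Inside this gene, 22 sites in the 28S part had medians of 1.61 and 1.17. This region is where polymerase I is known to terminate, and ribosomal DNA is repeated in many near-identical copies.

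The 3 shortest called sites had a mean between -1.79 and -1.71. In PID1, whose product binds phosphotyrosine-containing proteins, the intron site at chr2:229180920 on the minus strand had times of 0.374 and 0.478. Its adjusted p was 0.0232 by limma. Another was on a ribosomal DNA contig, and the last was the TRR-ACG2-1 site shown above, which GENCODE places in LIMD1-AS1.

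Genes were compared by the median over their sites. Sites could be given to 1 gene at 10678 positions (59.3%), in 4972 genes, of which 3132 held a single site. The 373 genes with at least 5 sites entered limma. At a Benjamini-Hochberg adjusted p under 0.05, 0.0% were called longer and 0.0% shorter, with 116 at an unadjusted p under 0.05 and a smallest adjusted p of 0.0756. Other settings gave between 1 and 193 calls, so the genes are given by their values only. Single sites within a gene had a median interquartile range of 1.36 and 0.92 on the log2 scale, against 0.95 and 0.77 between gene medians. A median over at least 5 sites varies less than single sites do, so this order does not show how far genes differ. Of the 373 genes, 172 (46.1%) lay above the median of all sites in both replicates and 102 (27.3%) below.

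**Figure D4:**
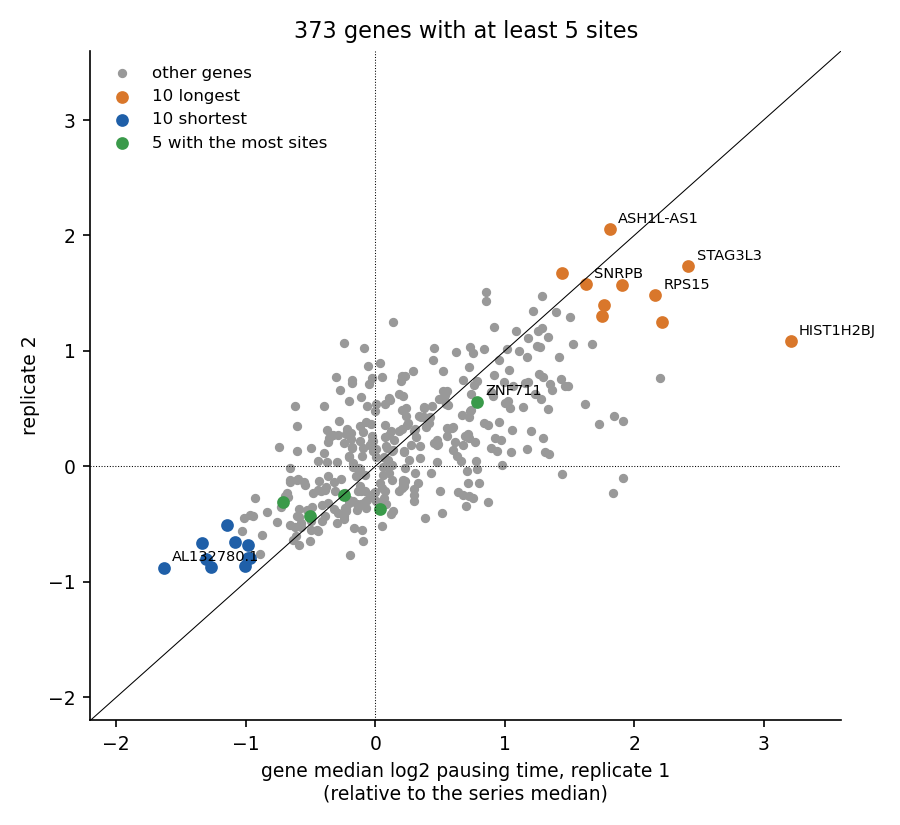
Median log2 pausing time of each of the 373 genes with at least 5 sites in replicate 1 (horizontal axis) and replicate 2 (vertical axis), relative to the median of all reproducible sites, with the diagonal drawn. The 10 longest genes lie at the upper right, and HIST1H2BJ stands off the diagonal with 3.21 in replicate 1 and 1.08 in replicate 2.

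Ribosomal protein genes supplied 3 of the 10 genes with the longest times, and 41 of the 373 genes tested. RPS15 had median times of 6.54 and 4.07 over 5 sites, RPS6 6.80 and 3.47 over 7, and RPS3 4.92 and 3.61 over 14. SNRPB, a core protein of spliceosomal snRNPs, had 4.53 and 4.39 over 8 sites. MCM3, part of the replicative helicase, had 4.98 and 3.85 over 5 sites, and AEN, a nuclease induced by p53, had 4.56 and 5.19 over 6. The others were HIST1H2BJ, a histone H2B gene, with 13.5 and 3.09 over 5 sites, the pseudogene STAG3L3 with 7.81 and 4.85, and the antisense transcripts ASH1L-AS1 and DLEU2, with 5.13 and 6.06 and with 5.84 and 4.34. The 5 sites of STAG3L3 span 35 bp, and near-identical copies make their reads uncertain.

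Among the 10 genes with the shortest times, 4 held sites inside tRNA genes. These were AL132780.1, with 4 of its 5 sites in tRNA genes and median times of 0.471 and 0.793, KCTD2 (3 of 5), AL590385.2 (2 of 5) and AJ003147.2 (1 of 5). In PID1, all 12 sites lay within 188 bp and outside exons, with medians of 0.749 and 0.843. HFM1, a helicase gene of meiosis, likewise had 12 sites within 225 bp and outside exons, with 0.739 and 0.911. Whether the reads of these clusters come from other copies in the genome was not tested, so the values may not describe the genes as a whole. KIF5B, a kinesin motor gene, had 0.689 and 0.925 over 5 sites, and C1QTNF6, which encodes a secreted protein, had 0.740 and 0.841. MIR663AHG and AC007952.4, both non-coding, had 0.578 and 0.922 and 0.660 and 1.03.

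The 5 genes with the most sites were of unlike kinds. AL669831.3 had 115 sites, of which 99 lie in nuclear pseudogenes of mitochondrial genes, with medians of 0.891 and 1.18, and their reads may come from either copy. MT-RNR2, the large mitochondrial ribosomal RNA, had 63 sites with 1.03 and 1.09, and MT-ND5, a subunit of complex I, had 50 with 1.24 and 1.23. FP671120.1 had 47 sites, on the ribosomal DNA described above, with 1.504 and 1.13. ZNF711, a zinc finger gene on the X chromosome, had 46 sites with 2.52 and 2.15.

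Counts of tested genes in the lists are read here against the tested genes as a whole, whose gene medians were 0.12 and 0.16. The other list values are medians over sites, in which genes with many sites count more. Lists also differ in the share of sites within 300 bp after any start. That share was 42.6% for ribosomal protein genes, 77.7% for histone genes and 22.1% for long non-coding RNA genes. Of 79 cytosolic ribosomal protein genes 70 held a site, and their 488 sites had medians of 0.26 and 0.19, near those of coding gene bodies (0.24 and 0.31). Of the 41 that entered the test, with gene medians of 0.21 and 0.22, 20 were above in both replicates and 8 below, against 46.1% and 27.3% of all genes tested. Median times were 1.60 and 1.47 in RPS19 (32 sites), 2.29 and 1.55 in RPL37 (24), 2.22 and 1.85 in RPL3 (20) and 3.74 and 2.18 in RPL13 (18).

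Replication-dependent histone genes differed between the replicates. Their 121 sites in 39 of 62 genes had a median of 0.97 in replicate 1 and of -0.05 in replicate 2. HIST2H2BE had 5.21 and 1.24 over 9 sites, and HIST1H1E, a linker histone gene, had 3.597 and 2.58 over 6. HIST2H4A and HIST2H4B, with 10 and 8 sites and medians of 2.34 and 1.11 and of 2.55 and 1.15, are identical or nearly so, and reads could come from either.

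Sites in the hnRNP genes (194 in 23 of 26) had medians of 0.31 and 0.23, and those in the SR splicing factor genes (80 in 13 of 16) 0.21 and 0.19. Of the 9 hnRNP and 7 SR genes tested, 6 and 3 were above in both replicates, against 46.1% of all genes tested. HNRNPA2B1 had 1.61 and 1.61 over 35 sites, and HNRNPU 1.77 and 1.66 over 33. TRA2B, a splicing regulator, had 3.71 and 3.26 over 12 sites, while SRSF6 had 1.54 and 1.89 over 14. Host genes of small nucleolar RNAs (128 sites in 14 of 23) had 0.32 and 0.15. ZFAS1, GAS5, SNHG17 and SNHG5 held 27, 21, 20 and 18 of these sites.

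Immediate early genes, which respond within minutes to growth signals, had medians of 0.40 and 0.33 over 157 sites in 26 of 34 genes. Of 12 tested, 9 were above in both replicates and 1 below, against 46.1% and 27.3% of all genes tested. EGR1 had 1.60 and 1.60 over 30 sites, and JUN 2.42 and 2.65 over 19. Heat shock and chaperone genes had 0.31 and 0.41 over 85 sites in 23 of 34, and 6 of 7 tested were above in both, against the same 46.1%. HSP90AB1, a cytosolic chaperone, had 2.95 and 2.16 over 14 sites.

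Of the housekeeping lists, translation factors had 0.27 and 0.26 (124 sites in 25 of 39 genes), with EEF1A1 at 1.20 and 1.76 over 27 sites and EEF2 at 1.79 and 2.58 over 17. Glycolysis enzymes had 0.40 and 0.39 (62 sites in 12 of 17), with PKM at 3.22 and 2.08 over 16 sites and GAPDH at 1.497 and 1.32 over 9. Cytoskeletal genes had 0.55 and 0.25 (48 sites in 8 of 12), with TUBA1B at 2.62 and 1.89 over 12 sites and VIM at 3.31 and 2.42 over 7. Nucleolar ribosome assembly genes had 0.10 and 0.09 (64 sites in 13 of 26), with NPM1 at 1.25 and 1.24 over 14.

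No gene of 5 further lists, each with few sites, entered the test. Proteasome genes (24 sites in 16 of 32) had -0.12 and 0.16, pause and elongation factors (28 in 16 of 34) -0.34 and 0.03, and nuclear oxidative phosphorylation genes (34 in 22 of 44) 0.07 and 0.46. Among the pause and elongation factors, HEXIM1, an inhibitor of P-TEFb, had log2 medians of 0.80 and 1.13 over 4 sites. The times of these sites ran from 0.574 to 71.43 in replicate 1. On the same scale MEPCE had 0.36 and 0.54, SUPT5H 0.50 and 0.13, and ELL2 -0.735 and -0.114. Spliceosomal and other snRNA genes had -0.09 and -0.11 over 19 sites in 10 of 19. Polymerase III genes other than tRNA genes (14 sites in 11 of 22) had 0.99 and 0.49, which is above the median where tRNA genes were below it. RN7SL3, a signal recognition particle RNA gene, had 41.7 and 5.60 over 2 sites, RMRP 3.17 and 1.89 over 2, and RNY3 2.02 and 1.66 over 2. RN7SL1, a gene of the same kind as RN7SL3, had 1.425 and 0.811 at 1 site, below the median in both replicates.

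Long non-coding RNA genes had medians of 0.56 and 0.43 over 68 sites in 8 of 18, and NEAT1 held 31 of these sites with median times of 3.57 and 3.34. Of 3 tested, 1 was above in both replicates and 1 below, against 46.1% and 27.3% of all genes tested. The other 1 differed between the replicates, and the gene medians were 0.43 and -0.04. MALAT1 had 1.97 and 1.40 over 19. Among small RNA genes, the 220 snoRNA sites had medians of 2.07 and 1.55, and the 67 snRNA sites 1.30 and 1.30.

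The mitochondrial genome had shorter times than the autosomes, by 0.52 and 0.43 on the log2 scale. Its 860 sites had medians of 1.05 and 1.12, and 79.1% and 80.1% of the plus-strand sites of each table were reproducible, against 67.4% and 73.2% of sites in small RNA genes, 61.8% and 60.7% on ribosomal DNA contigs, and 28.9% and 23.8% in introns, the lowest class. Times on the plus strand, which holds most of the genes, were 1.33 and 1.15 (n = 462), and on the minus strand 0.877 and 1.09 (n = 398). The difference between strands was 0.34 ± 0.36 (SD, n = 2 replicates), smaller than the spread between replicates. Of 14 mitochondrial genes tested, 10 were below the median in both replicates and 0 above, against 27.35% and 46.11% of all genes tested. Among sites with narrow fits in both tables, the mitochondrial sites were longer than autosomal ones, by 0.11. That filter leaves out most long times and kept 56.7% of mitochondrial sites against 32.9% of all sites. This reversal cannot be told apart from the effect of the filter.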

How the data were processed

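The 2 sarkosyl tables give, for each genomic position, a pausing time and summaries of a fitted rate. The deposited pausing time carries no stated unit, equals 1 over the median rate in every row, and was made by the authors from 4 run-on times. The submitters' processing notes name cutadapt 1.14, HISAT2 2.1.0, SAMtools, bedtools and hg38; how rates were fitted is not given in the sources used here. That each table holds the libraries of the same replicate number is inferred from its name.

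Times were log2-transformed and centred on the median of the 18016 reproducible sites of each table. Classes come from GENCODE v29 genes. limma 3.58.1, with Benjamini-Hochberg adjustment, tested genes with at least 5 sites and single sites against 0, and was tested on simulated data. The genes named are the 10 largest and 10 smallest means on the same side in both tables, the 5 with the most sites and up to 4 members per list. Since no gene was called, they are given by values only. The single sites named are the 3 longest and 3 shortest called, outside chromosome 8. Sequence and GC content were read only where transcripts or promoter windows cover a site, since no genome was used here. Sites were intersected with RefSeq tRNA genes without regard to strand. Members and lists were chosen with earlier results of these data known.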

Additional observations from a re-analysis of the deposited data

How the results depend on the processing

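Of 84 recomputed values of the comparisons, 52 stayed within the spread between replicates or within 1.5 times a count, 29 moved and 3 reversed. Among sites with narrow fits in both tables (5931, chosen by a quartile ratio that rises with the time, so that long times are mostly left out: their median was 0.806 and 0.985), promoter-proximal minus gene body was -0.083, exon minus intron 0.037, termination zone minus gene body 0.060, upstream antisense minus promoter-proximal -0.019, mitochondrial minus autosomal 0.11, the contrast within the first 300 bp 0.14, tRNA minus other sites -0.42, and agreement 0.48. The within-gene promoter contrast gave no value there, with too few genes left. Using the mean rate gave -0.30 for the promoter, 0.10 for exons and -0.37 for mitochondria. A window of 150 bp gave -0.49 for the promoter and -0.53 within genes. Exon minus intron was 0.12 at rates of at least 0.05, 0.16 on chromosomes 1 to 22 and 0.12 with 1 value per gene, where the termination zone was 0.063. The Spearman rank correlation with GC content was -0.11 over 11 bases and -0.19 over 51 bases.

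Calls were the least stable results. The count of genes called, 0 with the settings used, was 5 with at least 10 sites, 1 with at least 3, 84 centred on the genes tested (57 longer), 112 with a robust trended prior (65 longer), 193 from means over sites (174 longer), 103 at the same interquartile range (84 longer), 6 with narrow fits, 6 for sites over 300 bp from a start and, chosen after seeing the data, 74 without tRNA sites (66 longer). The cause was not tested. Sites called numbered 4961 with the robust prior, 10 with narrow fits and 0 at the same interquartile range.

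Without replicate 1 or without replicate 2, upstream antisense minus promoter-proximal was 0.057 or -0.049, and FP671120.1 was -0.37 or 0.041. That gene was 0.30 from means over sites. Of 97 recomputed values of the 25 named genes, 80 stayed within the spread, 15 moved with no change of sign and 2, both of FP671120.1, reversed. A single table leaves no test, and with no gene called there was no share to follow. No paired analysis was possible because the sites come from 1 group, with no second group to pair. Site depth is unknown, which limits what any single time can show.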
